A study of Mus musculus with 6 samples.

Results

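Syn1, Gpm6b, Stau2, Lamc3, Sfn, Padi2, Lratd1 and Or52h1 are genes of which most are best known from nerve, glia, basement membrane, skin or the nose. They are described here because their mRNA was lower in mouse induced regulatory T cells (iTregs) of the Dlst knockout (KO) group than in those of the control (WT) group. The 8 genes were taken by symbol from 21899 genes listed in each sample's table, all 8 passed the filter on low counts that left 12768 genes, and all 8 belong to the 28 tested genes (0.219%) called lower in KO. They were selected on that KO against WT difference in these 6 libraries, so their KO and WT values are given as a description, without a test.

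The study took CD4+ T cells from the spleens of iWT mice (WT, 3 samples) and of Dlst-Treg iKO mice (KO, 3 samples). Cells of both groups spent 2 days under Treg polarisation with 4-hydroxytamoxifen, the ligand of inducible Cre. RNA for bulk sequencing came from sorted cells that carried CD4 and both reporters, FoxP3-GFP and tdTomato-RFP. Dlst encodes a subunit of the 2-oxoglutarate dehydrogenase complex of the TCA cycle. No source used here gives the promoter that drives Cre, the sex or age of the mice, or whether samples came from separate animals. Any p-value thus measures only the spread between these samples, which may be technical, except that Y-linked mRNA sets KO replicate 1 apart (below).

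Many genes with a name from 1 tissue are transcribed at a low level elsewhere, and neuronal genes in particular are held down outside the nervous system by the repressor REST, which binds an element in their promoters. Laminins are trimers of an alpha, a beta and a gamma chain that build basement membranes, and 14-3-3 proteins bind phosphorylated partners in every cell. Peptidylarginine deiminases turn arginine in proteins into citrulline, and olfactory receptors form the largest family of G protein-coupled receptors.

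Promoter sequences of the 2 X-linked members are shown because they share a sequence element that the choice of genes did not use. RefSeq promoters on GRCm38.p6, from 250 bases before to 50 bases after the start, were found for 6 of the 8 genes. Lamc3 and Stau2 had no entry, and Or52h1 was matched under its older symbol, Olfr648. In the lines below, read 5′ to 3′ along the gene's strand, capitals mark the palindrome TGACGTCA, the cAMP response element bound by CREB proteins, and TTCAGCACC, the left part of the REST element.
Syn1 promoter, chrX:20920869-20921168, minus strand: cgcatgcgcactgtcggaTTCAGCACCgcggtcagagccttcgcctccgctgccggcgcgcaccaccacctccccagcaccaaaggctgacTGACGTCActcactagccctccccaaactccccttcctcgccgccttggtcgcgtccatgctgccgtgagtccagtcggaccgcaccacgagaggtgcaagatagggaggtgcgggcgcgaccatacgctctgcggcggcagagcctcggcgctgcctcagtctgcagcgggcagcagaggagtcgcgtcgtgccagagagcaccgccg
Gpm6b promoter, chrX:166238693-166238992, plus strand: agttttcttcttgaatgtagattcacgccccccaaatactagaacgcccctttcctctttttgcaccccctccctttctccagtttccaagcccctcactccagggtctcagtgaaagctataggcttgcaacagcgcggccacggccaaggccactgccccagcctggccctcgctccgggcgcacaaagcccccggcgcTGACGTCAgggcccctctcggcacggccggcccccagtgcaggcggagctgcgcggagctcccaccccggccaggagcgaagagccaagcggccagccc

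TGACGTCA starts at base -159 of Syn1 and -49 of Gpm6b, counted from the start site. On either strand it was found in 2 of the 6 promoters and in 1.79% of 32851 promoters of the same length. Those 32851 were not matched to the 6 in CpG content, and TGACGTCA itself holds a CpG, so the 2 shares do not compare like promoters. TTCAGCACC starts at -232 in Syn1, the 1 member with it, and stood in 0.371% of promoters. Both were chosen for display after the sequences were seen. TGACG, which TGACGTCA contains on both strands, was also found in Padi2 and so in 3 of 6 promoters, against 20.8% of all. The other letters searched, on both strands, were TATAAA (0 of 6, 13.6% of all promoters), CACGTG (0 of 6, 7.15%), TGANTCA (0 of 6, 7.81%), TGTTTAC (0 of 6, 3.65%), TGTGGT (0 of 6, 16.8%), GGGCGG (Padi2 and Lratd1, 35.7%), GGACAG (Sfn, 22.2%) and CCAAT (Sfn, Padi2, Lratd1 and Or52h1, 37.4%). The promoters of Syn1, Gpm6b, Padi2 and Lratd1 had 20 to 33 CpG dinucleotides in 300 bases and an observed-to-expected ratio of 0.661 to 0.957. A ratio of 0.6 or more was found in these 4 of 6 promoters and in 35.8% of all promoters. Those of Sfn and Or52h1 held 4 each, at ratios of 0.186 and 0.299.

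mRNA of REST and of CREB1 was present in every library, and neither difference passed. Rest stood at 25.1 ± 1.34 TPM in WT and 23.7 ± 0.949 TPM in KO, and Creb1 at 48.8 ± 1.58 and 46.1 ± 3 TPM (SD, n = 3 each). TPM (transcripts-per-million, scaled by gene length) allow levels of different genes to be compared. The edgeR adjusted p was 0.594 for Rest and 0.534 for Creb1, with log2 fold changes on counts of -0.08 and 0.07, so for Creb1 the sign on counts is opposite to that of the TPM means. Crem, a CREB relative, was at 82.8, 68.3 and 60.4 TPM in WT and 47.5, 58.9 and 55.1 TPM in KO, without overlap in TPM but with overlap in library-scaled counts (log2 fold change -0.27, SE 0.14, edgeR adjusted p = 0.412). Atf1, another, had a log2 fold change of 0.05 (adjusted p = 0.736), as did the REST partner Rcor1 (adjusted p = 0.618). These genes were chosen after the promoters were seen.

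Libraries held 33590510 to 49772670 estimated counts. Among the 12768 tested genes edgeR's quasi-likelihood test called 28 (0.219%) lower and 58 (0.454%) higher in KO, at a Benjamini-Hochberg adjusted p under 0.05, and 43 and 134 with the replicate number as a block. Every KO sample lay below every WT sample for 10.9% of tested genes and above for 11.9%, and the log2 fold change was -0.58 or lower for 2.97%. Dlst mRNA was at 161, 149 and 149 CPM (counts-per-million of library size, adjusted by TMM) in WT and 125, 129 and 129 CPM in KO, so the groups did not overlap, and the log2 fold change of -0.26 did not pass (edgeR adjusted p = 0.0894). Foxp3 was at 154, 202 and 198 CPM in WT and 231, 207 and 227 CPM in KO (edgeR adjusted p = 0.305). Cd4 was at 507, 506 and 522 CPM in WT and 465, 445 and 432 CPM in KO (edgeR adjusted p = 0.151). For neither did the groups overlap, with Foxp3 higher and Cd4 lower in KO, and DESeq2 called Cd4 lower. KO replicate 1 held Y-linked mRNA, with Eif2s3y at 82.4 CPM against 0 in the other 5 libraries, and stood highest in neutrophil and monocyte markers. It thus held cells of a male mouse and did not come from the same mouse as KO replicates 2 and 3. The part of sex in the levels of the X-linked Syn1 and Gpm6b was not tested.

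Syn1 encodes synapsin I, a phosphoprotein that tethers synaptic vesicles to the cytoskeleton. In replicate order it stood at 8.22, 9.10 and 8.03 CPM in the WT libraries, and at 4.93, 4.93 and 4.27 CPM in the KO libraries. The KO libraries lay close together, and the lowest WT library was 1.63 times the highest KO library. WT averaged 8.45 ± 0.571 CPM and KO 4.71 ± 0.379 CPM (SD, n = 3 each), with a log2 fold change, KO against WT, of -0.84 (SE 0.12).

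Gpm6b encodes a membrane glycoprotein found in neurons and oligodendrocytes. The WT libraries held 10.2, 12 and 9.84 CPM and the KO libraries 3.73, 4.75 and 5.69 CPM. The groups did not overlap, and KO replicate 1 was the lowest of all. KO libraries held on average 44.2% of the WT level (10.7 ± 1.13 against 4.72 ± 0.978 CPM, SD, n = 3 each), a log2 fold change of -1.18 (SE 0.17).

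Stau2 encodes a double-stranded RNA-binding protein that carries mRNAs along dendrites. Its level was 8.66, 6.24 and 8.80 CPM in WT and 2.79, 3.37 and 3.45 CPM in KO. WT replicate 2 was the lowest WT library and still stood at 1.81 times the highest KO library. The means were 7.90 ± 1.44 and 3.21 ± 0.358 CPM (SD, n = 3 each), a log2 fold change of -1.30 (SE 0.17).

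Lamc3 encodes the laminin gamma 3 chain and differed most of the 8. It was at 5.61, 8.61 and 7.84 CPM in WT and 2.24, 3.02 and 2.32 CPM in KO. WT replicate 1 was lower than the other WT libraries, and the groups stayed apart. The means were 7.35 ± 1.56 and 2.52 ± 0.429 CPM (SD, n = 3 each), a log2 fold change of -1.55 (SE 0.20), or -1.71 without WT replicate 1.

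Sfn encodes 14-3-3 sigma, the epithelial member of the 14-3-3 family and a target of p53 that arrests the cell cycle in G2. Its level was 18.5, 17.4 and 15.1 CPM in WT and 10.1, 7.65 and 9.50 CPM in KO. KO replicate 2 was the lowest library, and each KO library lay below each WT library. The means were 17.0 ± 1.76 and 9.07 ± 1.27 CPM (SD, n = 3 each), a log2 fold change of -0.90 (SE 0.13).

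Padi2 encodes the peptidylarginine deiminase of muscle, brain and macrophages, and it had the smallest fold difference of the 8. It was at 45.8, 52.9 and 49.7 CPM in WT and 31.4, 32.6 and 32.6 CPM in KO. The KO libraries were nearly equal and lay below all WT libraries, with a mean of 32.2 ± 0.715 CPM against 49.5 ± 3.53 CPM (SD, n = 3 each). KO held 65.0% of the WT level, a log2 fold change of -0.62 (SE 0.07).

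Lratd1, also named Fam84a, encodes a protein with a domain related to lecithin retinol acyltransferase. It was at 3.75, 4.26 and 4.13 CPM in WT and at 1.80, 2.24 and 1.98 CPM in KO. The groups did not overlap, and KO held 49.6% of the WT level (4.05 ± 0.267 against 2.01 ± 0.223 CPM, SD, n = 3 each), a log2 fold change of -1.02 (SE 0.16). These values rest on few reads, 527 counts in WT and 242 in KO in total.

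Or52h1 encodes an olfactory receptor. Its level was 6, 5.39 and 4.97 CPM in WT and 2.06, 1.94 and 1.88 CPM in KO. Of the 8 genes it had the widest gap between groups, with the lowest WT library 2.42 times the highest KO library. The means were 5.45 ± 0.515 and 1.96 ± 0.0899 CPM (SD, n = 3 each), a log2 fold change of -1.47 (SE 0.15). Counts of Or52h1 and Padi2 had decimals in all 6 libraries, which marks reads divided with other genes, so their levels are less certain. The other 6 genes had whole counts throughout, among them Stau2 and Gpm6b, with 17 and 12 annotated transcripts.

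**Figure D1:**
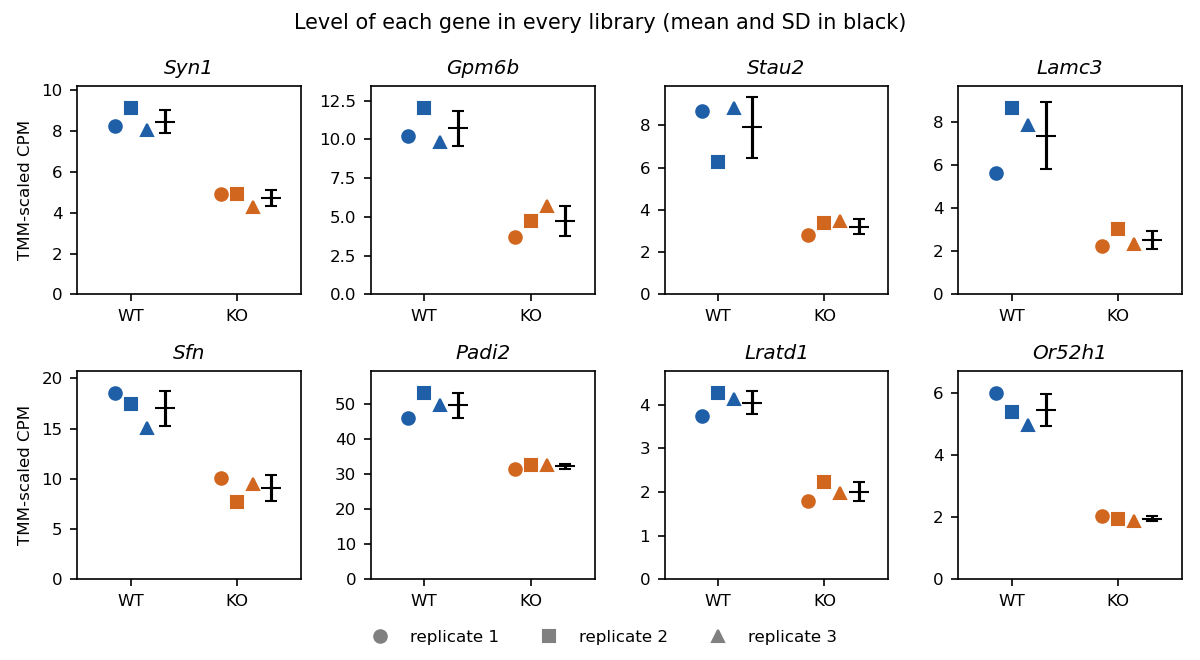
TMM-scaled CPM (vertical axis, from 0) of the 8 genes in each of 3 WT (blue) and 3 KO (orange) libraries, with marker shape for the replicate number and the mean ± SD in black. In each panel all KO points lie below all WT points, as for 10.9% of tested genes.

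All 8 genes had every KO library below every WT library, which follows from how they were chosen. Their median log2 fold change was -1.10 (range -1.55 to -0.62), against 0.00 over all tested genes and -0.98 over the 28 called lower, among which they ranked from 5 to 21 by size of fall. In WT their mean TPM was between 1.79 (Lratd1) and 18.4 (Sfn), above that of 19.1 to 48.9% of tested genes, so each was below the median tested gene. The SD of log2 CPM within groups ran from 0.0759 (Padi2) to 0.256 (Lamc3), and 5 of the 8 were above the median of 0.108 over all tested genes. The highest KO library was replicate 1 for 3 of the 8, replicate 2 for 3 and replicate 3 for 2. The lowest KO library was replicate 1 for 5 of the 8, and the highest WT library was replicate 2 for 5. Leaving out replicate 1 of both groups, an alternative chosen after seeing the data, gave log2 fold changes from -1.63 (Lamc3) to -0.65 (Padi2).

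The 8 genes lie on 6 chromosomes in GENCODE M21 (GRCm38), whether or not the authors used that annotation. Syn1 (X, 20860511 to 20921004, minus strand) and Gpm6b (X, 166238911 to 166388988, plus) are at opposite ends of the X chromosome. Sfn (4, 133600556 to 133602168, minus) and Padi2 (4, 140906344 to 140952586, plus) share chromosome 4. Stau2 lies on chromosome 1 (16228674 to 16520112, minus), Lamc3 on 2 (31887291 to 31946539, plus), Lratd1 on 12 (14146830 to 14152054, minus) and Or52h1 on 7 (104177598 to 104183392, minus). All are protein-coding. Their Ensembl identifiers are ENSMUSG00000037217 (Syn1), ENSMUSG00000031342 (Gpm6b), ENSMUSG00000047281 (Sfn), ENSMUSG00000028927 (Padi2), ENSMUSG00000025920 (Stau2), ENSMUSG00000026840 (Lamc3), ENSMUSG00000020607 (Lratd1) and ENSMUSG00000042909 (Or52h1).

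Chromosomal neighbours were not used in the choice and were tested in the fit over all genes. Of the 80 tested genes that stand within 5 places of a member on its chromosome, 1 was called lower, 1 was called higher and the median log2 fold change was -0.01. The called share of 0.674% over all genes is the background for these 2 of 80. Every KO sample lay below every WT sample for 14 of the 80 and above for 13, against 10.9% and 11.9% of tested genes. At an unadjusted p under 0.05, 27.5% of the neighbours passed, against 15.1% of all tested genes. The gene called higher was Il17a, the Th17 cytokine, the fifth tested gene after Stau2 and 4211 kb from it (log2 fold change 1.85, edgeR adjusted p = 0.0301, from 1.78e-08 to 0.136 over the alternatives).

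The stretch around Padi2 was singled out after its values were seen. Of its 10 tested neighbours 5 had every KO sample below every WT sample and 0 had every KO sample above, and of the nearest 20 these numbers were 10 and 0, against 10.9% and 11.9% of all tested genes. The called gene was Sdhb, a subunit of succinate dehydrogenase, whose start is 8.62 kb after the end of Padi2. Sdhb was at 94.0, 92.2 and 93.2 CPM in WT and 74.8, 74.8 and 71.4 CPM in KO, a log2 fold change of -0.34 (SE 0.05, edgeR adjusted p = 0.0292). It passed under 10 of 15 alternatives, with adjusted p from 1.46e-06 to 0.155. The other 4 were Rcc2, Crocc, Necap2 and Szrd1, with log2 fold changes of -0.18, -0.42, -0.27 and -0.20 and edgeR adjusted p from 0.061 to 0.239. Necap2, an adaptor of endocytosis, was at 52.8, 55.2 and 54.4 CPM in WT and 44.9, 45.6 and 44.5 CPM in KO. Of the paralogs before Padi2 on the chromosome, Padi3 and Padi6 did not pass the filter on low counts. Padi3 was at 0.167, 0.0852 and 0.0646 CPM in WT and 0.0399, 0.0299 and 0 CPM in KO. The tested paralogs, Padi4 and Padi1, had log2 fold changes above 0. Padi4 had a log2 fold change of 0.69 (SE 0.43) and Padi1 of 0.40 (SE 0.41), and neither passed (edgeR adjusted p = 0.494 and 0.687). Whether place on the chromosome has a part in the level of Padi2 was not tested.

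Or52h1 lies between the beta-globin genes and a cluster of Trim genes on chromosome 7, and 8 of its 10 tested neighbours had log2 fold changes above 0, with a median of 0.30. The nearest were Or52d1, another olfactory receptor, at 0.65 (SE 0.29, edgeR adjusted p = 0.35) and Trim34a, of a family of antiviral genes, at 0.39 (SE 0.13, adjusted p = 0.231). Hbb-bs, a beta-globin gene 350 kb away, was at -0.93 (SE 0.63, adjusted p = 0.53).

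Syn1 overlaps 2 genes on the other strand. Timp1, an inhibitor of matrix metalloproteinases, lies within its span, and Araf, a kinase of the MAP kinase pathway, meets its 3′ end. Timp1 was at 1.97, 2.51 and 2.73 CPM in WT and 0.599, 1.88 and 1.6 CPM in KO, so the groups did not overlap, and the log2 fold change was -0.85 (SE 0.39, edgeR adjusted p = 0.361). Araf was at 115, 122 and 118 CPM in WT and 108, 108 and 107 CPM in KO (log2 fold change -0.14, SE 0.05, adjusted p = 0.25). The sources do not say whether counting used strand, so reads in the shared bases cannot be assigned with certainty. The next gene, Cfp, which encodes properdin, 4.45 kb away, stood at 0.16 (adjusted p = 0.747).

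At the remaining 5 genes Il17a was the 1 neighbour that passed. The nearest on each side were Gemin8 (log2 fold change -0.38, edgeR adjusted p = 0.181) and Ofd1 (-0.01) at Gpm6b, Rdh10 (-0.18) and Ube2w (0.06) at Stau2, and Fibcd1 (-0.20) and Aif1l (-0.37) at Lamc3. At Lratd1 they were Nbas (-0.21) and Trib2 (0.35), and at Sfn Gpn2 (-0.37, adjusted p = 0.13) and Zdhhc18 (0.13). Gemin8, Gpn2 and Nbas had every KO sample below every WT sample, and Zdhhc18 and Trib2 every KO sample above.

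**Figure D2:**
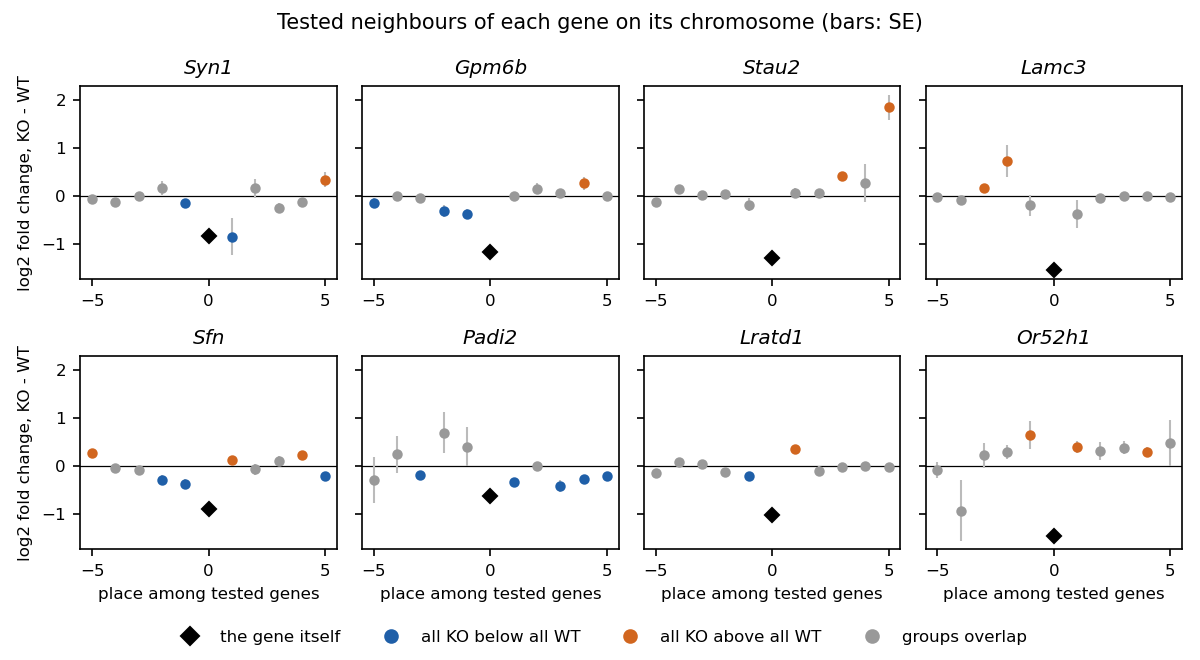
Log2 fold change, KO minus WT (vertical axis, bars SE), of the 5 tested genes on each side of each of the 8 genes, by place along the chromosome (horizontal axis), with the gene itself as a black diamond. Around Padi2, 5 of 10 neighbours (blue) have every KO sample below every WT sample, and around Or52h1 8 of 10 lie above 0.

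Deposited counts and TPM together give the transcript length that the authors' program used in each library, since TPM divide counts by length. This implied length was scaled to bases on 697 genes with a single GENCODE transcript, and it moves when reads shift between isoforms, whatever the level. Rounded to whole bases it was 1613 for Sfn and 4774 for Padi2 in all 6 libraries, each the length of 1 annotated transcript. For Or52h1 it was 2929 bases in 5 libraries and 2930 in KO replicate 2, beside annotated transcripts of 2929 bases, with 2 exons, and of 951 bases.

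For Stau2 the implied length was lower in every KO library than in any WT library. It was 2158, 2439 and 2510 bases in WT and 1987, 2102 and 2030 bases in KO, so the groups did not overlap. The means were 2369 ± 186 and 2040 ± 57.8 bases (SD, n = 3 each), 86.1% of WT in KO. A two-sided exact permutation test gave p = 0.1, the smallest that 3 against 3 samples allow, and 0.4 after Benjamini-Hochberg adjustment over the 8 genes. No difference could pass 0.05 in this test, so it does not decide whether the length of Stau2 differed. Of 10562 tested genes with at least 50 counts in each library, 20.7% had no overlap between groups in implied length. KO held 40.6% of the WT level of Stau2 in CPM and 46.5% in TPM, which divides by this length. GENCODE lists 17 transcripts of Stau2, from 369 to 3907 bases.

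Lratd1 showed the widest range of implied length, but not by group. Of the 6 libraries, 4 gave 4162 to 4165 bases, the length of the full transcript (4164 bases), while WT replicate 3 gave 3580 and KO replicate 2 gave 2799 bases. The only other annotated transcript has 371 bases. In TPM, KO replicate 2 therefore stood at 1.39 against 0.752 and 0.825 in the other KO libraries, while in CPM the 3 libraries were within 2.24 to 1.80. The lowest library reached 67.2% of the highest, and 1.69% of tested genes with 50 counts in each library ranged below 70%.

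The implied length of Syn1 was 3220 to 3232 bases, with the lowest library at 99.6% of the highest, between its annotated transcripts of 3209 and 3261 bases. KO lay above WT in each library (exact permutation p = 0.1, adjusted 0.4). Gpm6b ran from 3454 to 3673 bases and Lamc3 from 5503 to 5875 bases, with overlap between groups (exact permutation p = 0.8 and 0.3).

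**Figure D3:**
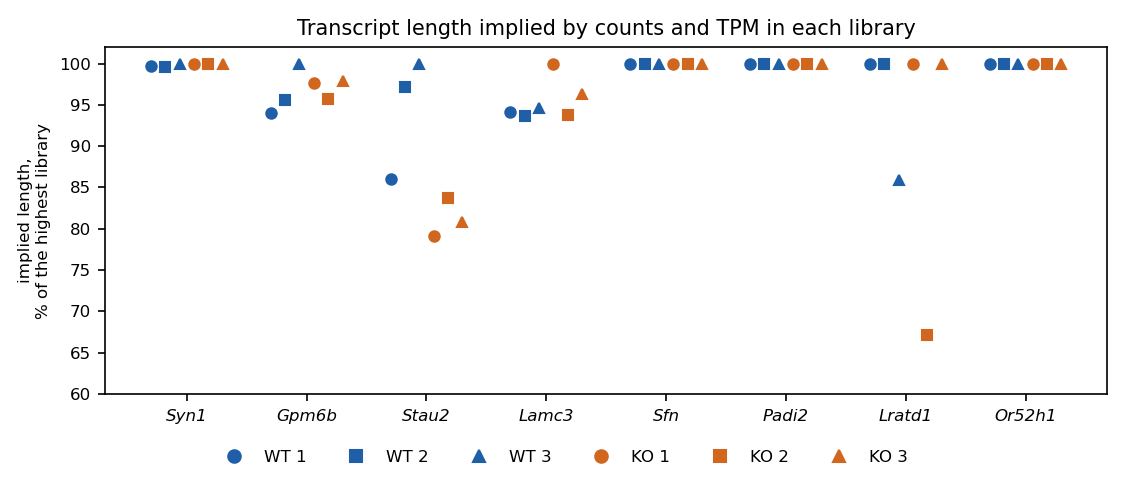
Transcript length implied by deposited counts and TPM, as a percentage of the highest library of each gene (vertical axis, starting at 60%), in 3 WT (blue) and 3 KO (orange) libraries. Stau2 lies lower in all 3 KO libraries, and 2 libraries of Lratd1, WT replicate 3 and KO replicate 2, lie below the other 4.

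Paralogs of the 8 genes and their partners were looked at next, from lists of functional relatives that leave the members out. None of 173 tested relatives passed by edgeR (0 higher and 0 lower, with 13 and 6 at an unadjusted p under 0.05), beside 0.674% of all tested genes. By limma on TPM 0 passed, and by DESeq2 5, beside 165 lower and 367 higher among the 12768 tested genes. With so few genes called in all, lists of this size can hold 0 called genes without differing from the rest. The share at an unadjusted p under 0.05 was 11%, against 15.1% of all tested genes. Olfactory receptors, most of them at low levels, made up 96 of the 173 and so weigh most in these numbers.

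Among synapsins Syn1 was nearly alone, with 98.4 ± 1.66% of the summed TPM of Syn1, Syn2 and Syn3 in WT and 96.7 ± 0.776% in KO (SD, n = 3 each). The synapsin and synaptic vesicle list had 10 of 15 genes tested, 0 rose and 0 fell, and the median log2 fold change was 0.21. Syp, synaptophysin, an X-linked synaptic vesicle gene like Syn1, was at 83.2, 61.4 and 53.6 CPM in WT and 35.3, 49.1 and 43.2 CPM in KO. Its groups did not overlap, and the log2 fold change was -0.64 with SE 0.18 (edgeR adjusted p = 0.194, from 0.00745 to 0.418 over the alternatives). Vamp2, of the vesicle fusion machinery, was at 0.20 (SE 0.10, adjusted p = 0.419).

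Gpm6a, the paralog of Gpm6b found in neurons, had 0 counts in all 6 libraries.

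Stau2 was the lesser staufen, with 12.3 ± 3.16% of the TPM of both in WT and 5.62 ± 0.354% in KO (SD, n = 3 each). Stau1, its ubiquitous paralog, was at 38.1, 42.9 and 44.6 TPM in WT and 44.4, 45.9 and 46.8 TPM in KO. The sum of both was 47.7 ± 2.82 and 48.4 ± 1.47 TPM, and Stau1 had a log2 fold change of 0.14 (edgeR adjusted p = 0.448). Of 24 staufen partners and RNA transport genes 23 were tested, 0 rose and 0 fell, at a median of -0.02. Ddx6 and Syncrip, of RNA granules, were at 0.02 and -0.01, and the kinesin gene Kif5c was at -0.67 (SE 0.17, adjusted p = 0.147) with every KO sample below every WT sample.

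Lamc3 was a minor laminin gamma chain, with 11.9 ± 2.59% of the gamma chain TPM in WT and 4.84 ± 0.617% in KO (SD, n = 3 each). Lamc1, the common gamma chain, was at 15.8, 14.5 and 17.4 TPM in WT and 12.1, 15.2 and 14.8 TPM in KO and did not pass (log2 fold change -0.09, edgeR adjusted p = 0.747). Of the other 10 laminin chains 5 were tested and 0 rose or fell, at a median of -0.10. Lama1 had 0 counts, and Lama2, Lama3 and Lama4 at most 2 over all 6 libraries, so Lama5 was the alpha chain with a measurable level, 1.31 to 2.28 TPM in WT and 1.44 to 1.66 TPM in KO. Of 14 basement membrane partners and laminin receptors 11 were tested, 0 rose and 0 fell, at a median of -0.05, among them Itgb1 at -0.18 and Rpsa at -0.03.

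Sfn was a small part of the 14-3-3 family, whose 7 genes summed to 1737 ± 51.7 TPM in WT and 1679 ± 80.2 TPM in KO. Its share was 1.06 ± 0.119% in WT and 0.584 ± 0.104% in KO (SD, n = 3 each). None of the other 6 rose or fell (median -0.06), with Ywhaz and Ywhae the most abundant at 538 to 588 and 379 to 465 TPM. Of 14 cell cycle partners of 14-3-3 proteins and p53 arrest genes 0 rose and 0 fell, 12 had log2 fold changes below 0 and the median was -0.13. Ybx1 and Eif4b, the most abundant, were at -0.13 and -0.03, and Cdkn1a, the best known p53 target, at -0.23 (SE 0.14, edgeR adjusted p = 0.5).

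Padi2 made up 97.4 ± 0.918% of the TPM of the 5 deiminase genes in WT and 94.9 ± 2.08% in KO (SD, n = 3 each), and the family's sum was 18.5 ± 0.958 TPM in WT and 12.3 ± 0.0376 TPM in KO. Padi1 and Padi4 were tested and did not pass. Padi4, the neutrophil enzyme, was highest in KO replicate 1 at 0.781 TPM, against 0.252 to 0.378 TPM in the other 5 libraries.

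Lratd1 had 26.6 ± 2.40% of the summed TPM of Lratd1 and Lratd2 in WT and 15.8 ± 5.58% in KO (SD, n = 3 each). Lratd2, its paralog, was at 4.85 to 5.00 TPM in WT and 4.87 to 5.69 TPM in KO, and its log2 fold change was 0.10 (edgeR adjusted p = 0.591). Of 9 genes of LRAT-related enzymes and retinoid handling 5 were tested, 0 rose and 0 fell, at a median of 0.10, with Plaat3 the most abundant at 39.3 to 49.2 TPM.

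The other olfactory receptors had a median above 0. Of 1137 others listed, 712 had 0 counts in every library and 96 were tested, of which 0 rose and 0 fell by edgeR. Of the 96, 69 had log2 fold changes above 0 (median 0.19, from -0.39 to 1.49). Every KO sample lay above every WT sample for 10 of the 96 and below for 1, against 11.9% and 10.9% of all tested genes. That 1 was Or5m3b, at 57.1 to 72.3 TPM in WT and 53.8 to 55.5 TPM in KO (-0.20, edgeR adjusted p = 0.411). Their summed level was 252 to 265 CPM in WT, 330 CPM in KO replicate 1 and 246 and 260 CPM in the other KO libraries.

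**Figure D4:**
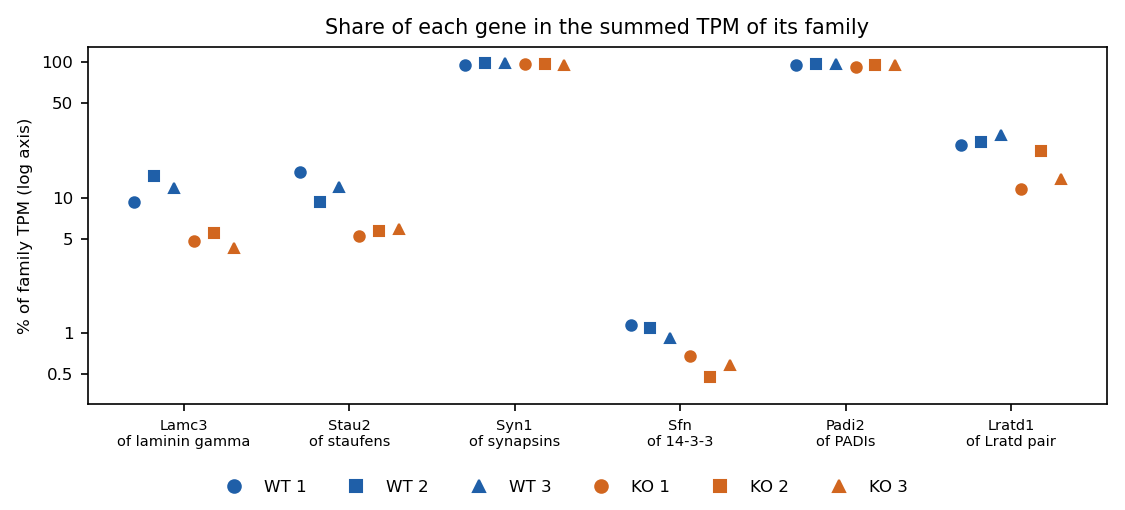
Share of each of 6 genes in the summed TPM of its paralog family (vertical axis, log scale, percent), in 3 WT (blue) and 3 KO (orange) libraries. Syn1 and Padi2 make up over 90% of their families in each library, while Sfn stays near or below 1% of the 14-3-3 family.

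Markers of the tissues these genes are named for were looked up in the same libraries. In bulk RNA, fewer cells of a type and less RNA per cell cannot be told apart. T cell and Treg identity genes, 10 of 10 tested, summed to 4484 to 5028 CPM in WT and 4529 to 4938 CPM in KO, and 0 rose or fell by edgeR. Among them Trac was at 290, 360 and 263 CPM in WT and 416, 441 and 421 CPM in KO, without overlap. Its log2 fold change was 0.49 (SE 0.11, edgeR adjusted p = 0.111), and in TPM its groups overlapped. DESeq2 called Trac higher and Cd4 lower. Of 12 neuronal markers Rbfox3, Elavl4, Nefl and Stmn2 had 0 counts in all 6 libraries, which allows up to 0.0893 CPM in the smallest library (counting error only). The 5 tested ones had a median log2 fold change of -0.64, 4 of them below 0, and 0 passed. Map2, a microtubule protein of dendrites, was at 1.44, 1.49 and 0.796 CPM in WT and 0.279, 0.747 and 0.515 CPM in KO, without overlap, at a log2 fold change of -1.30 (SE 0.41, edgeR adjusted p = 0.214). Gap43, a growth cone protein, was at 1.14, 3.94 and 4.03 CPM in WT and 0.319, 1.88 and 1.31 CPM in KO, with overlap (-1.41, SE 0.68, edgeR adjusted p = 0.386). The other tested markers besides Syp were the tubulin gene Tubb3, at 0.48, and the enolase gene Eno2, at -0.22. The neuronal list summed to 66.7 to 92.9 CPM in WT and 45.0 to 59.8 CPM in KO, most of it from Syp, and its part in the levels of Syn1, Gpm6b and Stau2 was not tested.

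Of 10 markers of myelinating glia Mog, Olig1 and Mobp had 0 counts, and 3 were tested, at a median of 0.10, with a sum of 269 to 297 CPM in WT and 288 to 315 CPM in KO. That sum came from Mbp and Cnp, which lymphocytes also express. Of 12 epithelial markers Krt5, Krt14, Krt8 and Krt19 had 0 counts, and 5 were tested, at a median of -0.11. They summed to 33.1 to 55.1 CPM in WT and 54.2 to 68.4 CPM in KO, so the sum was higher in KO on average while the median log2 fold change was below 0. Of 12 stromal and vascular markers 4 were tested, at a median of 0.41, with 37.8 to 48.8 CPM in WT and 45.3 to 69.9 CPM in KO. The fibroblast genes Dcn, Lum and Col3a1 had 1 count each over all libraries, and Col1a1 had 50 and Col1a2 44. In none of these 4 lists did a gene pass by edgeR.

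Cell types of the spleen differed more between libraries. Neutrophil and monocyte markers, 11 of 12 tested and all 11 above 0 with a median of 3.33, summed to 19.5 to 55.8 CPM in WT, to 652 CPM in KO replicate 1 and to 163 and 172 CPM in the other KO libraries. None passed by edgeR (smallest adjusted p = 0.105), and in DESeq2 8 of them did. B cell markers, 8 of 8 tested and all below 0 with a median of -0.59, summed to 298 CPM in WT replicate 1, 120 and 169 CPM in the other WT libraries and 161 to 197 CPM in KO. CD8 and NK cell markers, 6 of 8 tested with a median of 0.49, summed to 52.3 to 90.9 CPM in WT and 94.1 to 112 CPM in KO, and erythroid markers, 1 of 8 tested, to 0.71 to 1.25 and 0.386 to 0.699 CPM, with Slc4a1 at 0 counts. None of these passed by edgeR either. Over all marker lists 53 genes were tested and 0 passed by edgeR, against 0.674% of all tested genes. At an unadjusted p under 0.05, 17 were higher and 3 lower, a share of 37.7% against 15.1% of all tested genes. DESeq2 called 13 of the 53, beside 165 lower and 367 higher among the 12768 tested genes. The part of the marked cell types in the levels of the 8 genes was not tested. All 8 genes had log2 fold changes of -0.60 or lower without KO replicate 1, the library with the most neutrophil and monocyte mRNA. KO replicates 2 and 3 also held more of that mRNA than any WT library, and the genes were chosen on this difference. That refit therefore does not test the part of these cells.

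The genes most like the 8 in pattern were found by Pearson correlation of log2 CPM with the mean of their standardised profiles over the 6 samples, a description that the difference between groups sets for the most part. The 5 highest among the other genes were Srfbp1 (r = 0.9987), Rdh11 (0.9949), Entpd1 (0.9933), Necap2 (0.9921) and Galnt14 (0.9916). Entpd1 encodes CD39, an ectonucleotidase of Treg cells, and was at 8.41, 8.48 and 8.16 CPM in WT and 6.33, 6.60 and 6.31 CPM in KO. Rdh11, a retinol dehydrogenase, was at 46.5, 46.1 and 45.2 CPM in WT and 36.6, 37.8 and 37.5 CPM in KO. Of tested genes other than the 8, 0.619% had a correlation of 0.95 or more.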

How the data were processed

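mRNA libraries of 6 iTreg samples were sequenced, and the authors deposited, per the file headers, a table of estimated counts and a table of TPM per gene for each. The submitters' processing notes name FastQC and HISAT2. Build, annotation and counting program: not given in the sources used here. Estimated counts were rounded, filtered by filterByExpr, scaled by TMM and compared by the quasi-likelihood test of edgeR 4.0.16 (genotype as the single term, two-sided, Benjamini-Hochberg adjustment over 12768 genes, threshold 0.05). The members and gene lists were chosen with earlier results of these data known. Named were the members, Dlst, Foxp3 and Cd4, up to 2 abundant genes per list or those called, neighbours that passed or stood nearest, overlapping genes and the 5 of most similar pattern. Lamb3, Agrn, Kif5c, Cdkn1a, Trac, Map2, Gap43, Tubb3, Eno2, Col1a1, Col1a2, Or5m3b, Lratd2, Crocc, Szrd1, Rcc2, Cfp, Hbb-bs and genes at or near 0 counts were named after their values were seen. Deviations of same-numbered samples correlated at 0.192, 0.111 and 0.103, each over the 0.1 set for pairing, but WT 2 and KO 3 also correlated at 0.13. The pairing thus rests on the data, not on the labels, and is weak. One listed relative is not reported here. Positions come from GENCODE M21, matched by Ensembl identifier for 21806 of 21899 genes. Alternatives used limma 3.58.1 on log2(TPM + 0.1) and log2(TPM + 1), DESeq2 1.42.0, other scalings, other filters, a replicate block and each sample left out. R 4.3.3, Python 3.11.15, pandas 2.3.3, scipy 1.17.1 and matplotlib 3.10.9 were used.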

Additional observations from a re-analysis of the deposited data

How the results depend on the processing

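The log2 fold changes of the 8 genes kept their sign in all 120 refits (15 settings for each gene). The genes were chosen on this difference in the same samples, so the kept sign is a description and no support. The fold changes stayed within 1 replicate SD of the value reported in all but 8 refits, each of them by limma on log2(TPM + 1) or log2(TPM + 0.1). On log2(TPM + 1) Lratd1 stood at -0.50 and Padi2 at -0.58. The number of genes called was less stable. DESeq2 called 165 lower and 367 higher, limma on log2(TPM + 1) 13 and 26, the replicate block (paired numbers) 43 and 134, and the fit without replicate 1 of both groups, chosen after seeing the data, 227 and 311. No low-count filter gave 92 higher. With 1 library left out, 1 to 40 genes were called lower and 3 to 56 higher, fewest without KO replicate 3 (1 and 3), KO replicate 2 (2 and 8), WT replicate 3 (5 and 11) and WT replicate 2 (10 and 17). Called relatives numbered 5 by DESeq2 and 3 without replicate 1 of both groups, and 0 elsewhere. Called neighbours numbered 9 by DESeq2, 7 without replicate 1 of both groups, 1 and 0 by limma on log2(TPM + 0.1) and log2(TPM + 1), 1 with no low-count filter, where other genes become neighbours, 1 with 3 and 4 with 10 places on each side, and 0 to 3 with 1 library left out. The cause was not tested. With the block 3 neighbours and 0 relatives were called. Members whose groups did not overlap in implied length numbered 2 of 8 with all 6 libraries. Of tested genes with at least 50 counts in each library 20.7% had no overlap. With 1 library left out the members numbered 2 to 4. Groups separate more easily with fewer libraries, and the share over all genes was not computed there. Low counts limit the KO levels of Lratd1 (75 to 90 per library), Or52h1 (65.15 to 103.16) and Lamc3 (90 to 112).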

Other observations

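Some relatives of the 8 genes were called by DESeq2 alone or by few settings. Lamb3 and Agrn, a laminin beta chain and a basement membrane proteoglycan, had higher values in every KO library than in any WT library. Lamb3 was at 5.36, 4.28 and 4.43 CPM in WT and 6.89, 6.87 and 6.33 CPM in KO (log2 fold change 0.52, SE 0.13), and Agrn at 5.30, 5.07 and 4.93 CPM in WT and 10.1, 8.06 and 6.85 CPM in KO (0.71, SE 0.16). Neither passed by edgeR (adjusted p = 0.147 and 0.105), Lamb3 passed under 2 of 15 alternatives and Agrn under 1. Agrn was highest in KO replicate 1. Kif5c, a neuronal kinesin heavy chain that moves RNA granules, was at 3.69, 5.09 and 4.99 CPM in WT and 2.77, 2.93 and 2.99 CPM in KO and passed under 2 of 15 alternatives, with adjusted p from 0.0243 to 0.349. These genes were singled out after their values were seen.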
